A study of Homo sapiens with 6 samples.

Results

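The genes of oxidative phosphorylation were followed in 92.1, an established human line grown from a melanoma of the uvea, the pigmented layer of the eye. They were taken by symbol from the summed expression values: names starting with NDUF, SDHA, SDHB, SDHC, SDHD, UQCR, COX4, COX5, COX6, COX7, COX8, ATP5 or MT-. This gave 107 of the 12010 genes listed, 94 encoded in the nucleus and 13 in the mitochondrial genome. The nuclear genes comprise 77 subunits (37 of complex I, 4 of complex II, 8 of complex III, 11 of complex IV with NDUFA4 counted there, and 17 of complex V), 12 assembly factors and 5 accessory genes. Cells in the LBH589 group (3 libraries) received 0.1 µM LBH589 for 24 h, and cells in the DMSO group (3 libraries) received the solvent for the same time. LBH589, or panobinostat, inhibits histone deacetylases, the enzymes that take acetyl groups off histones and other proteins. All 6 libraries come from this 1 line, the labels name no separate cultures, and p-values therefore measure only the spread between these libraries, which may be technical.

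Oxidative phosphorylation passes electrons from NADH and succinate through complexes I to IV to oxygen, and complex V uses the proton gradient that this builds to make ATP. Complex II is encoded wholly in the nucleus, while the other complexes combine nuclear subunits with a few subunits made inside the mitochondrion from its own DNA. The mitochondrial genes are transcribed as long precursors, mostly from the same strand, and then cut into messengers that some genes share. Their levels therefore depend on other machinery than those of the nuclear genes.

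Levels are given in FPKM (fragments per kilobase, scaled for library size), a per-length unit, after adding up all listed transcripts of a gene. Summed FPKM over named genes lay between 354643 and 366705 in LBH589 libraries and between 396753 and 422160 in DMSO libraries, and the files hold no counts, so depth is unknown. The 7 melanocyte markers examined, MLANA, PMEL, TYR, TYRP1, DCT, MITF and SOX10, were all listed. Their summed level was 718 to 774 FPKM in LBH589 and 2530.4 to 2670.3 FPKM in DMSO. Of the 7, 6 fell in the test given below, where 21.6% of all tested genes were called lower. No leukocyte or endothelial marker was listed, and of 6 fibroblast markers only COL1A1 and LUM were, at a summed 4.23 to 5.55 FPKM in LBH589 and 1.47 to 2.52 FPKM in DMSO. Of the 5 epithelial markers 3 were listed, at a summed 8.92 to 11.8 FPKM in LBH589 and 5.52 to 8.57 FPKM in DMSO. Of the 4 muscle markers only MYH7 was listed, at 0.0728 to 0.16 FPKM in LBH589 and 0.757 to 1.32 FPKM in DMSO. The part of other cell types in the results was not tested beyond these values. In bulk RNA, fewer cells with a transcript and less of it per cell cannot be told apart.

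Most oxidative phosphorylation genes did not pass the test for a difference between LBH589 and DMSO. Of the 107, all of which passed the filter on low values, 7 rose and 19 fell in LBH589 at an adjusted p below 0.05 (limma on log2(FPKM + 1), Benjamini-Hochberg over all 11520 genes tested). These are 24.3% of the members, against 48.8% of all tested genes called (27.2% higher, 21.6% lower). Among the 94 nuclear members 7 rose and 17 fell, and with the FPKM sums of the libraries made equal 14 rose and 14 fell. With sums made equal without the mitochondrial genes 9 rose and 16 fell. Equal medians gave 7 rises and 21 falls, and quantile normalization 8 rises and 17 falls. On the log2(FPKM + 1) scale 8 members changed by 2-fold or more (7.48%), against 25.6% of all tested genes. The median log2 difference, LBH589 minus DMSO, was -0.09 over the members and 0.08 over all tested genes. The median size of the difference, whatever its sign, was 0.29 over the members and 0.57 over all tested genes. All 3 LBH589 values lay above all 3 DMSO values in 14 members, and below them in 26, where 33% and 26.5% of all tested genes did so. The 40 members without overlap in either direction compare with 59.5% of all tested genes. With the added 1, log2 differences of genes at low FPKM come out smaller than on FPKM itself.

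**Figure D1:**
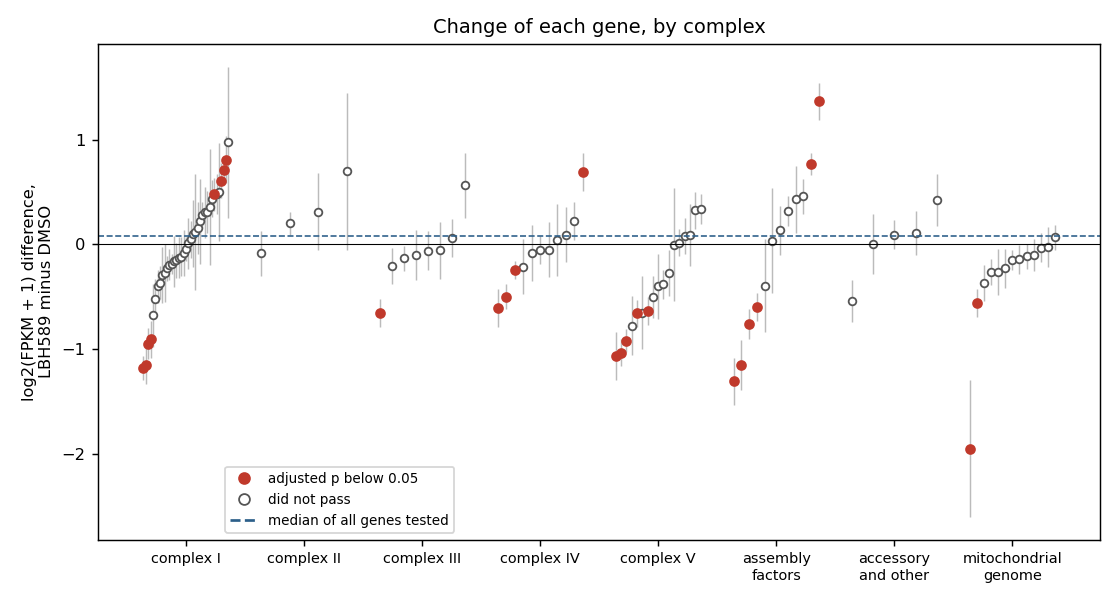
Log2 difference of FPKM + 1, LBH589 minus DMSO, for each member, grouped by complex, assembly factors, accessory genes and the mitochondrial genome; filled points passed the test. Members of complex V lie mostly below 0, with a median of -0.40 (-0.22 with library sums made equal), while those of complex I lie on both sides, with a median of -0.05 (0.12 with library sums made equal).

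The mitochondrially encoded genes included the highest value of the whole listing, MT-ATP8. Of the 13, 2 fell in LBH589 (15.4%, against 48.8% of all tested genes called), both encoding complex V subunits. No mitochondrial gene rose in the limma fit, nor at an unadjusted p below 0.05. MT-ATP8 and MT-ATP6 encode membrane subunits of the ATP synthase and overlap on the mitochondrial genome, as do MT-ND4L and MT-ND4 of complex I. In GENCODE, MT-ATP8 lies at chrM:8366-8572 and MT-ATP6 at chrM:8527-9207 (GRCh38, plus strand), sharing the 46 bases chrM:8527-8572, 22.2% of the MT-ATP8 gene. MT-ND4L and MT-ND4 share the 7 bases chrM:10760-10766. Both overlaps are shown, in capitals with 30 bases on each side, because a fragment from the shared bases can be assigned to either gene.
MT-ATP8 and MT-ATP6: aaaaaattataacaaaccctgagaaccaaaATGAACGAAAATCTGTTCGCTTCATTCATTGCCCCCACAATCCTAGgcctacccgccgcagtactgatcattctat
MT-ND4L and MT-ND4: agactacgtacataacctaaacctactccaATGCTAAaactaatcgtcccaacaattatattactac
The capitals of the first line start with the ATG of MT-ATP6 and end with the stop codon of MT-ATP8, and those of the second start with the ATG of MT-ND4.

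MT-ATP6 had 4691, 4070.2 and 3990.3 FPKM in LBH589 replicates 1 to 3, against 5439.6, 29373 and 27712 FPKM in DMSO replicates 1 to 3. The groups did not overlap, but DMSO replicate 1 lay near the LBH589 libraries and far below the other 2 DMSO libraries. The log2 difference was -1.95 (SE 0.65, adjusted p = 0.0494), and among the fits that left out 1 library the call held only without DMSO replicate 1, with a log2 difference of -2.75 (adjusted p = 0.000226) and adjusted p between 0.0992 and 0.134 in the other 5.

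MT-ATP8 had 23048, 24089 and 21542 FPKM in LBH589, against 29209, 36771 and 35679 FPKM in DMSO. All LBH589 libraries were below all DMSO libraries, and DMSO replicate 1 was again the lowest of its group. The log2 difference was -0.56 (SE 0.13, adjusted p = 0.0144), and it lost the call without LBH589 replicate 1 (adjusted p = 0.0518), LBH589 replicate 3 (0.0523) or DMSO replicate 2 (0.0532). The ratio of MT-ATP8 to MT-ATP6 was 4.91, 5.92 and 5.40 in LBH589, against 5.37, 1.25 and 1.29 in DMSO. Here too DMSO replicate 1 had the value of the LBH589 libraries. MT-CO3, the next gene along at chrM:9207-9990, gave a ratio to MT-ATP6 of 3.85, 4.18 and 4.46 in LBH589, against 3.56, 0.71 and 0.624 in DMSO. Its ratio to MT-CO1, a gene that it does not adjoin, was 1.54, 1.53 and 1.52 in LBH589 and 1.499, 1.63 and 1.35 in DMSO, with overlapping groups. How fragments of the overlap were assigned is not given in the sources used here, and its part in these values was not tested.

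The 7 mitochondrial genes of complex I did not pass. MT-ND4 had 13019, 11475 and 12816 FPKM in LBH589, against 12698, 17949.6 and 18058 FPKM in DMSO (log2 difference -0.37, adjusted p = 0.125). MT-ND5 had 3975, 3476 and 4218 FPKM in LBH589, against 3389, 5315 and 5602 FPKM in DMSO (log2 difference -0.26, adjusted p = 0.36). DMSO replicate 1 lay among the LBH589 values of MT-ND4 and below those of MT-ND5, and without it both passed, at log2 differences of -0.54 (adjusted p = 0.00795) and -0.49 (adjusted p = 0.0199). MT-ND1 averaged 12856 ± 695 FPKM in LBH589 and 12321 ± 1128 FPKM in DMSO (SD, n = 3 each), the one member of the 13 with a difference above 0 (log2 0.06). MT-ND2, MT-ND3 and MT-ND4L differed by -0.11, -0.03 and -0.23 on the log2 scale, each with overlapping groups. MT-ND6, the one gene of the 13 on the other strand, was the lowest, at 356 ± 29.3 FPKM in LBH589 and 366 ± 54.7 FPKM in DMSO. The labels do not say that strand was used in counting, so fragments of MT-ND6 and of transcripts from the opposite strand cannot be told apart.

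The 3 catalytic-core subunits of cytochrome c oxidase and cytochrome b, the mitochondrial subunit of complex III, did not pass either. MT-CO1 had 11756, 11113 and 11714 FPKM in LBH589, against 12923, 12770.0 and 12766 FPKM in DMSO. Every LBH589 library was below every DMSO library, by a small margin (log2 difference -0.15, adjusted p = 0.241). MT-CO2 averaged 13440.1 ± 1151 FPKM in LBH589 and 16166 ± 1537 FPKM in DMSO (log2 difference -0.27, adjusted p = 0.136). MT-CO3 averaged 17630.4 ± 551 FPKM in LBH589 and 19175 ± 1789 FPKM in DMSO, and MT-CYB 7585 ± 639.9 FPKM in LBH589 and 8415 ± 1003 FPKM in DMSO. In these 3 genes the groups overlapped.

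**Figure D2:**
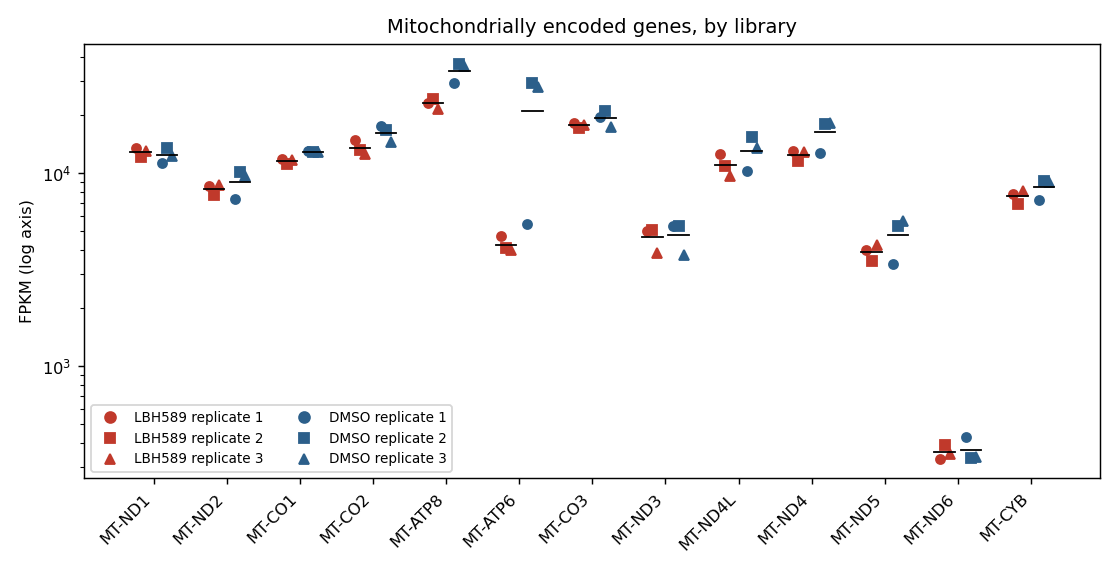
FPKM of the 13 mitochondrially encoded genes in each library (log axis), LBH589 left of DMSO for each gene. MT-ATP6 is between 3990.3 and 4691 FPKM in LBH589 and at 5439.6 FPKM in DMSO replicate 1, but at 29373 and 27712 FPKM in DMSO replicates 2 and 3.

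Summed over the 13 genes, the mitochondrial genome gave 130777 ± 5396 FPKM in LBH589 and 171732 ± 26369 FPKM in DMSO, a ratio of 0.762. The median log2 difference of the 13 was -0.15, but 0.027 with library sums made equal and 0.075 with quantile normalization. Without MT-ATP6, an alternative added after the data were seen, the ratio was 0.839, and without MT-ATP6 and MT-ATP8 it was 0.886 with overlapping groups. As a share of all FPKM, the 13 genes held 37.4, 35.2 and 36.1% in LBH589, against 35.9, 45.8 and 44.0% in DMSO. DMSO replicate 1 lay within the LBH589 range. The share that MT-ATP6 took of the mitochondrial FPKM was 3.42, 3.20 and 3.12% in LBH589, against 3.82, 15.2 and 15.4% in DMSO.

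Of the 17 nuclear subunits of complex V, the ATP synthase, 5 fell and none rose in the limma fit. These are 29.4% of the 17, where 21.6% of all tested genes were called lower and 27.2% higher. At an unadjusted p below 0.05 the complex V counts were 8 lower and 0 higher, and the unadjusted share over all genes is not given. Called falls numbered 9 without DMSO replicate 3, and 1 subunit, ATP5MC3, rose with library sums made equal or with the most abundant transcript alone. Their median log2 difference was -0.40, against 0.08 over all tested genes, and -0.22, against 0.22, with library sums made equal. In 8 of the 17 all LBH589 values were below all DMSO values, and in 1, ATP5MC3, above. Over all tested genes these shares were 26.5% below and 33% above. The 5 that fell belong to the membrane part (ATP5MD, ATP5MF), the peripheral stalk (ATP5PB, ATP5PF) and the central stalk (ATP5F1C).

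ATP5MD, a small membrane subunit also known as DAPIT and the most abundant nuclear subunit in DMSO, had 245, 244 and 213 FPKM in LBH589, against 456, 467 and 408 FPKM in DMSO. The highest LBH589 library was well below the lowest DMSO library (log2 difference -0.92, SE 0.11, adjusted p = 0.000976). ATP5PB, subunit b of the peripheral stalk, had 15.9, 14.5 and 16.1 FPKM in LBH589, against 36.9, 27.9 and 34.4 FPKM in DMSO (log2 difference -1.04, SE 0.13, adjusted p = 0.00108). ATP5MF, subunit f of the membrane part, had 73.3, 60.7 and 86.1 FPKM in LBH589, against 211, 132 and 130.4 FPKM in DMSO (log2 difference -1.07, SE 0.23, adjusted p = 0.0104). The groups were apart in both, and for ATP5MF DMSO replicate 1 stood above its group. A readthrough gene, ATP5MF-PTCD1, contains ATP5MF sequence, so fragments of ATP5MF may be split with it.

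ATP5PF, coupling factor 6 of the stalk, had 146, 132 and 141 FPKM in LBH589, against 187, 237 and 243 FPKM in DMSO (log2 difference -0.66, SE 0.13, adjusted p = 0.00709). ATP5F1C, the gamma subunit that turns inside the catalytic head, had 78.3, 70.0 and 81.3 FPKM in LBH589, against 139, 114 and 107 FPKM in DMSO (log2 difference -0.64, SE 0.13, adjusted p = 0.00848). Groups did not overlap in either gene, but both calls rest on the sum over transcripts: with the most abundant transcript alone the log2 differences were -0.34 (adjusted p = 0.54) and -0.15 (adjusted p = 0.602). The second listed transcript of ATP5F1C (ENST00000335698.4_1, 1078 bases) had 12.6, 11.8 and 10.9 FPKM in LBH589, against 55.6, 33.4 and 52.4 FPKM in DMSO. Its main transcript (ENST00000356708.11_1, 1163 bases) had 65.7, 58.2 and 70.3 FPKM in LBH589, against 83.9, 80.7 and 54.2 FPKM in DMSO. The difference in ATP5F1C was thus seen in its shorter transcript, while values of the main one overlapped between groups.

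The other complex V subunits did not pass. The 3 genes for subunit c, the ring that turns with the proton flow, encode the same mature protein. ATP5MC1 had 7.30, 5.49 and 8.43 FPKM in LBH589, against 18.9, 11.7 and 9.09 FPKM in DMSO (log2 difference -0.78, adjusted p = 0.0626). ATP5MC3 had 15.7, 16.0 and 16.7 FPKM in LBH589, against 13.5, 14.4 and 10.2 FPKM in DMSO (log2 difference 0.33, adjusted p = 0.103). ATP5MC2 averaged 21.6 ± 4.80 FPKM in LBH589 and 36.7 ± 18 FPKM in DMSO, with overlapping groups. Subunits alpha and beta of the catalytic head, ATP5F1A and ATP5F1B, averaged 149 ± 22.4 and 94.3 ± 27.9 FPKM in LBH589, and 147 ± 58.2 and 111 ± 10.6 FPKM in DMSO, also overlapping. Summed FPKM over the 17 genes was 1260, 1240 and 1234 in LBH589, against 1992, 1679 and 1598 in DMSO, a ratio of 0.709. The ratio was 0.759 over DMSO replicates 2 and 3 alone.

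Complex I, the NADH dehydrogenase, changed in both directions: of 37 nuclear subunits 4 rose and 4 fell (21.6%, against 48.8% of all tested genes called). None of its 7 nuclear core subunits, which carry the electron path, passed the limma test or had an unadjusted p below 0.05. The 8 called genes are among its 30 supernumerary subunits, and the difference between core and supernumerary subunits was not tested. With library sums made equal 7 of the 37 rose and 4 fell. NDUFS5, a subunit on the intermembrane-space side and the most abundant of the 37, had 151, 143 and 129 FPKM in LBH589, against 356, 302 and 305 FPKM in DMSO. The 2 groups were far apart (log2 difference -1.18, SE 0.12, adjusted p = 0.000436). NDUFS6, a zinc-binding subunit of the matrix arm, had 30.5, 21.4 and 19.9 FPKM in LBH589, against 58.4, 54.9 and 47.9 FPKM in DMSO (log2 difference -1.15, SE 0.18, adjusted p = 0.00279). NDUFA1, a small membrane subunit, had 52.4, 59.4 and 47.2 FPKM in LBH589, against 114, 112 and 85.5 FPKM in DMSO (log2 difference -0.95, SE 0.15, adjusted p = 0.00307). All values of both genes were lower in LBH589 than in DMSO. The fall of NDUFB10, at the intermembrane-space side, had a log2 difference of -0.91 (adjusted p = 0.00651) summed over its transcripts, and of -0.33 (adjusted p = 0.15) for its most abundant transcript.

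The rise with the smallest adjusted p in complex I was that of NDUFB3, a subunit of the far end of the membrane arm. It had 65.9, 60.7 and 74.4 FPKM in LBH589, against 43.3, 36.9 and 41.1 FPKM in DMSO. Every LBH589 library was above every DMSO library (log2 difference 0.71, SE 0.11, adjusted p = 0.00302), and the call held in each of the 6 fits that left out a library. NDUFA2, NDUFA8 and NDUFC2 rose with log2 differences of 0.81, 0.61 and 0.48 (adjusted p = 0.0249, 0.0258 and 0.0495), also without overlap. NDUFA8 and NDUFC2 kept the call only without DMSO replicate 1, and NDUFA2 only without LBH589 replicate 1 or 3, with log2 differences between 0.33 and 1.03 over these fits. With the most abundant transcript alone NDUFA2 and NDUFC2 lost the call (adjusted p = 0.136 and 0.094).

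In the matrix arm's core, NDUFS1 had 9.55, 9.18 and 15.3 FPKM in LBH589, against 8.51, 8.93 and 8.78 FPKM in DMSO (log2 difference 0.31, adjusted p = 0.248). It was the one core subunit without overlap in its sum. Its most abundant transcript (ENST00000233190.10_1) had 6.83, 7.84 and 5.16 FPKM in LBH589, against 7.82, 7.59 and 8.78 FPKM in DMSO, which overlap. Another transcript (ENST00000440274.5_1) was at 10.2 FPKM in LBH589 replicate 3 and at 0.397 FPKM or less in the other 5 libraries. NDUFV2 averaged 66.5 ± 11.1 FPKM in LBH589 and 75.9 ± 6.71 FPKM in DMSO, and was the most abundant of the 7. NDUFS7 was the lowest, at 3.96, 1.69 and 2.12 FPKM in LBH589 and 0.195, 4.01 and 2.31 FPKM in DMSO. Over the 37 subunits the sum was 1254, 1309 and 1295 FPKM in LBH589, against 1829, 1461 and 1395 FPKM in DMSO. The ratio of the means was 0.823, and 0.90 over DMSO replicates 2 and 3.

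**Figure D3:**
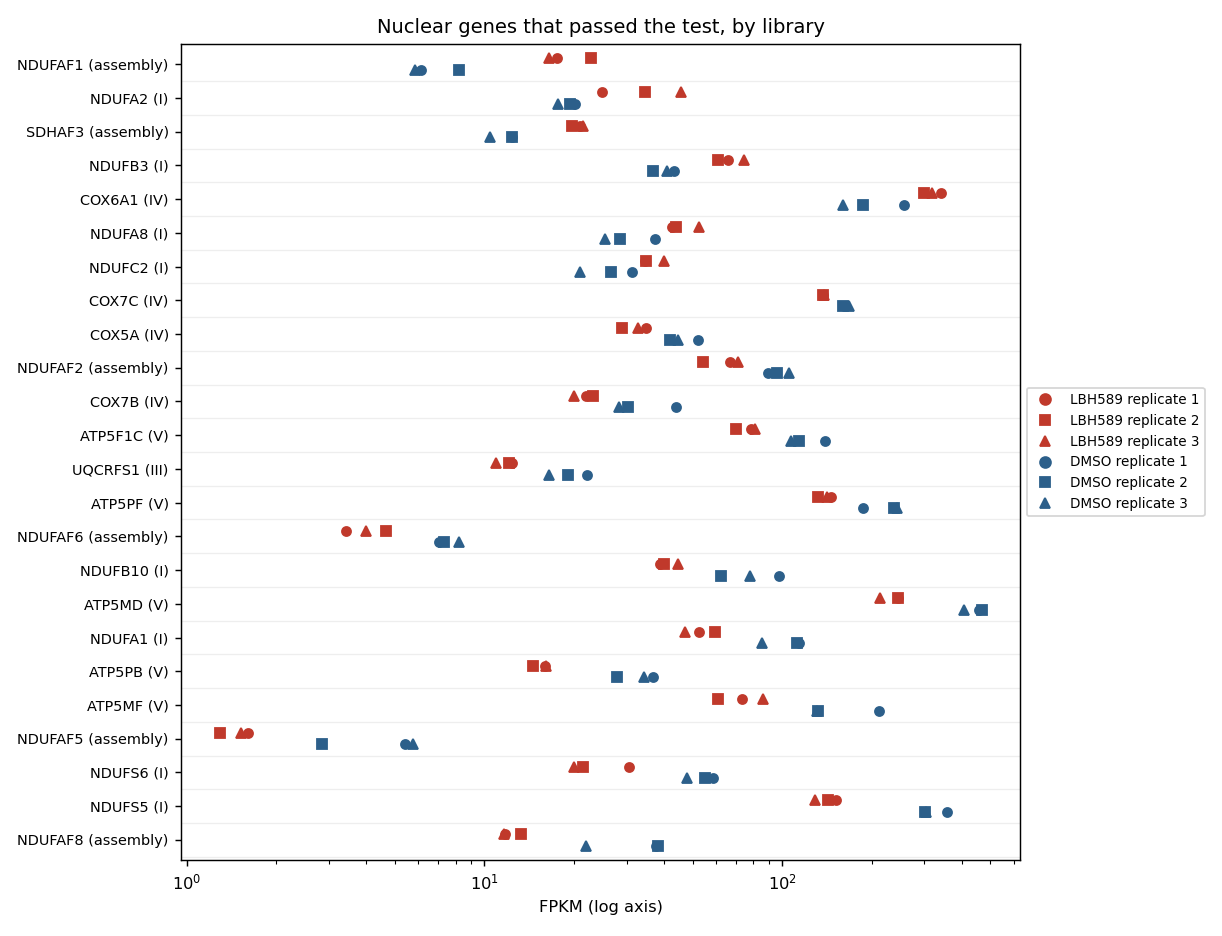
FPKM (log axis) of the 24 nuclear members that passed the test, in each of the 6 libraries, with LBH589 above DMSO in each row; rises are at the top and the largest falls at the bottom. In every row the LBH589 and DMSO values do not overlap, as in 59.5% of all tested genes. The rows were chosen by the test on these same values.

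The subunits of complex II, succinate dehydrogenase, and most of those of complex III did not pass. In complex II none did in the limma fit, where 48.8% of all tested genes were called, and none had an unadjusted p below 0.05. SDHB, the iron-sulfur subunit, averaged 33.4 ± 6.59 FPKM in LBH589 and 35.6 ± 7.51 FPKM in DMSO. SDHC, a membrane anchor, had 9.59, 10.7 and 9.79 FPKM in LBH589, against 9.48, 8.34 and 7.97 FPKM in DMSO, just without overlap (log2 difference 0.20, adjusted p = 0.191). SDHD, the other anchor, had 17.9, 8.80 and 21.9 FPKM in LBH589, against 8.22, 14.7 and 14.3 FPKM in DMSO. SDHA, the flavoprotein, had 11.4, 53.2 and 26.7 FPKM in LBH589, against 40.7, 8.06 and 10.6 FPKM in DMSO, the widest spread of the 4. Most of that spread lay in 1 of its 4 listed transcripts (ENST00000510361.5_1, 2148 bases), which was listed at 37.6 FPKM in LBH589 replicate 2, at 32.2 FPKM in DMSO replicate 1 and at 0 in the other 4 libraries. Its full-length transcript of 2390 bases had 4.10, 6.03 and 5.36 FPKM in LBH589, against 2.63, 1.75 and 3.76 FPKM in DMSO.

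In complex III, UQCRFS1 fell and the other 7 nuclear subunits did not pass (12.5% called, against 48.8% of all tested genes). UQCRFS1, the Rieske iron-sulfur protein, had 12.4, 12.1 and 10.9 FPKM in LBH589, against 22.1, 19.0 and 16.5 FPKM in DMSO. All LBH589 values were below all DMSO values (log2 difference -0.65, SE 0.13, adjusted p = 0.00783). UQCRH, the hinge protein and the most abundant of the complex, averaged 220.4 ± 18.5 FPKM in LBH589 and 234 ± 55.6 FPKM in DMSO. Its near-identical copy UQCRHL was listed at 1.91 ± 0.159 FPKM in LBH589 and 1.75 ± 0.654 FPKM in DMSO, and fragments of the pair may have been split between them.

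Complex IV, cytochrome c oxidase, had 1 rise and 3 falls among 11 nuclear subunits (36.4%, against 48.8% of all tested genes called). Log2 differences of the 11 lay between -0.61 and 0.69. COX6A1, the form of subunit 6A found in most tissues and the most abundant nuclear member in LBH589, had 340.3, 299 and 319 FPKM in LBH589, against 256, 187 and 160.3 FPKM in DMSO (log2 difference 0.69, SE 0.18, adjusted p = 0.023). COX5A had 35.0, 29 and 32.7 FPKM in LBH589, against 52.0, 42.0 and 44.5 FPKM in DMSO (log2 difference -0.50, SE 0.12, adjusted p = 0.0155). The groups were apart in both genes. COX7B had 21.9, 23.1 and 20.0 FPKM in LBH589, against 43.9, 30.3 and 28.4 FPKM in DMSO (log2 difference -0.61, adjusted p = 0.0316). COX7C had 137, 137 and 139 FPKM in LBH589, against 162, 159.7 and 168 FPKM in DMSO (log2 difference -0.25, adjusted p = 0.0489). The small difference in COX7C went with a narrow spread in both groups. COX6A1 and COX7C passed only without DMSO replicate 1 among the fits that left out a library, COX7B only without DMSO replicate 1 or 3, and COX5A lost the call without LBH589 replicate 2. The 3 falls also lost it with library sums made equal.

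Where subunits have paired forms, the widely expressed ones were listed. COX4I1 averaged 40.2 ± 1.69 FPKM in LBH589 and 45 ± 18.8 FPKM in DMSO. COX5B, which is not an alternative form of COX5A, averaged 33.1 ± 5.12 FPKM in LBH589 and 39.9 ± 14.3 FPKM in DMSO. COX6B1 averaged 51.4 ± 5.68 FPKM in LBH589 and 50.2 ± 19.0 FPKM in DMSO, and COX8A 29.6 ± 4.71 FPKM in LBH589 and 30.8 ± 13.7 FPKM in DMSO. COX7A2 averaged 42.5 ± 3.60 FPKM in LBH589 and 36.8 ± 8.93 FPKM in DMSO, and COX7A2L, a factor of respiratory supercomplexes, 61.4 ± 12 FPKM in LBH589 and 46.1 ± 12.7 FPKM in DMSO. NDUFA4, now known as a complex IV subunit, averaged 39.0 ± 5.37 FPKM in LBH589 and 40.5 ± 3.50 FPKM in DMSO. Each of these overlapped between groups. COX4I2, COX6A2, COX6B2, COX7A1 and NDUFA4L2, the tissue-restricted or inducible forms, were not listed. Several COX, UQCR and ATP5 genes have processed copies elsewhere in the genome, and how fragments shared with them were counted is not given in the sources used here.

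**Figure D4:**
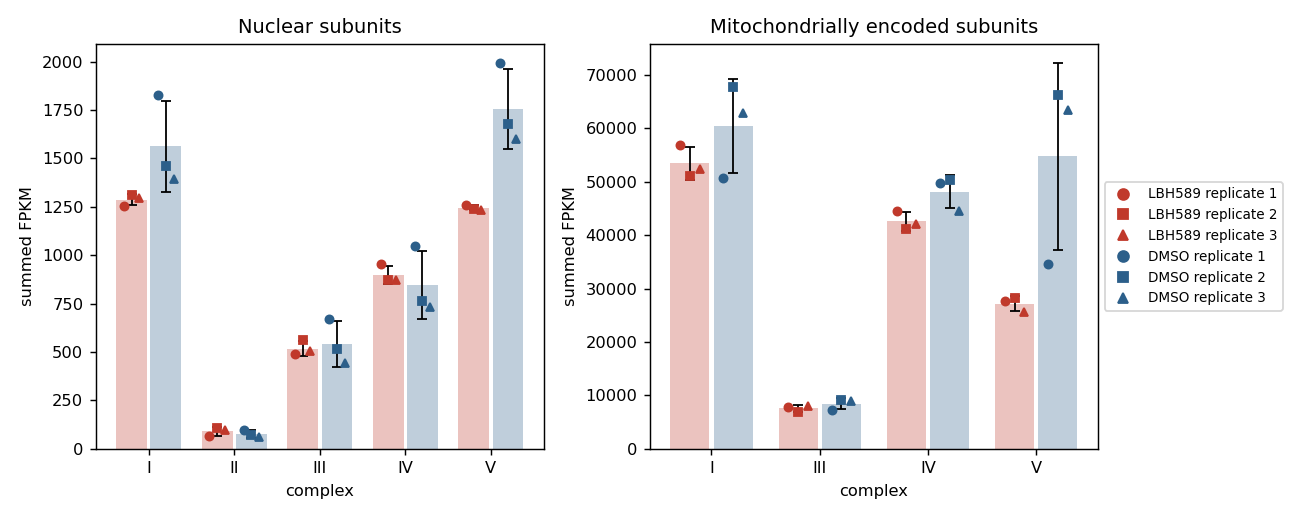
Summed FPKM per complex in each library, nuclear subunits on the left and mitochondrially encoded subunits on the right, with bars at the group mean, error bars of 1 SD and LBH589 left of DMSO. Nuclear complex V averages 1245 FPKM in LBH589 and 1756 FPKM in DMSO without overlap, and the mitochondrial complex V sum of DMSO replicate 1 lies near the LBH589 libraries.

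Of the 12 assembly factors, which help to build the complexes and are not part of them, 6 passed: 2 rose and 4 fell, a share of 50%, near the 48.8% over all tested genes. With library sums made equal 4 rose and 4 fell. NDUFAF1, a factor of the membrane arm of complex I, had 17.5, 22.8 and 16.4 FPKM in LBH589, against 6.12, 8.19 and 5.85 FPKM in DMSO, the largest rise of all members (log2 difference 1.37, SE 0.18, adjusted p = 0.00139). Part of it lay in short transcripts: its most abundant transcript (ENST00000260361.8_2, 1461 bases) had 11.6, 11.2 and 7.27 FPKM in LBH589, against 6.12, 6.86 and 5.85 FPKM in DMSO (log2 difference 0.58, adjusted p = 0.0782). SDHAF3, a factor of the iron-sulfur subunit of complex II, had 20.9, 19.6 and 21.4 FPKM in LBH589, against 12.4, 12.4 and 10.5 FPKM in DMSO (log2 difference 0.77, SE 0.11, adjusted p = 0.00174). The groups were apart in both sums.

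The 4 falls were all of complex I factors. NDUFAF8 had 11.7, 13.3 and 11.6 FPKM in LBH589, against 37.6, 38.2 and 22 FPKM in DMSO, the largest fall of a nuclear member (log2 difference -1.31, SE 0.23, adjusted p = 0.00417). NDUFAF5, a methyltransferase-like protein that NDUFAF8 is known to stabilise, had 1.61, 1.29 and 1.53 FPKM in LBH589, against 5.41, 2.84 and 5.75 FPKM in DMSO (log2 difference -1.15, adjusted p = 0.00921). NDUFAF6 had 3.43, 4.68 and 4.0 FPKM in LBH589, against 7.01, 7.29 and 8.20 FPKM in DMSO (log2 difference -0.76, adjusted p = 0.00541). No value of these 3 genes overlapped between groups. NDUFAF2, the most abundant of the 12, had 66.7, 54.3 and 70.9 FPKM in LBH589, against 89.7, 95.8 and 106 FPKM in DMSO (log2 difference -0.60, adjusted p = 0.0108). The calls of all 4 held in each fit that left out a library.

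DMSO replicate 1 stood apart in the nuclear subunits. It was the highest DMSO library in 61 of 77 subunits (79.2%), and in 45.3% of all tested genes. Its median deviation from the DMSO mean was 0.27 on the log2 scale, against -0.07 and -0.20 for DMSO replicates 2 and 3, while the LBH589 libraries lay between -0.01 and 0.02. The median SD on the log2 scale was 0.16 in LBH589 and 0.30 in DMSO over the nuclear subunits, against 0.15 in LBH589 and 0.22 in DMSO over all tested genes. Summed over the 77 subunits, FPKM was 4020.4, 4090.2 and 4002 in LBH589, against 5642, 4489 and 4226 in DMSO. The ratio of the means was 0.844, and 0.927 with DMSO replicate 1 left out. In the mitochondrial genes the same library was the lowest of its group in 8 of 13, so that the ratio of mitochondrial to nuclear subunit FPKM was 34.1, 31.1 and 32 in LBH589, against 25.2, 43.0 and 42.5 in DMSO. The LBH589 values lay between those of the DMSO libraries. What sets this library apart was not tested.

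**Figure D5:**
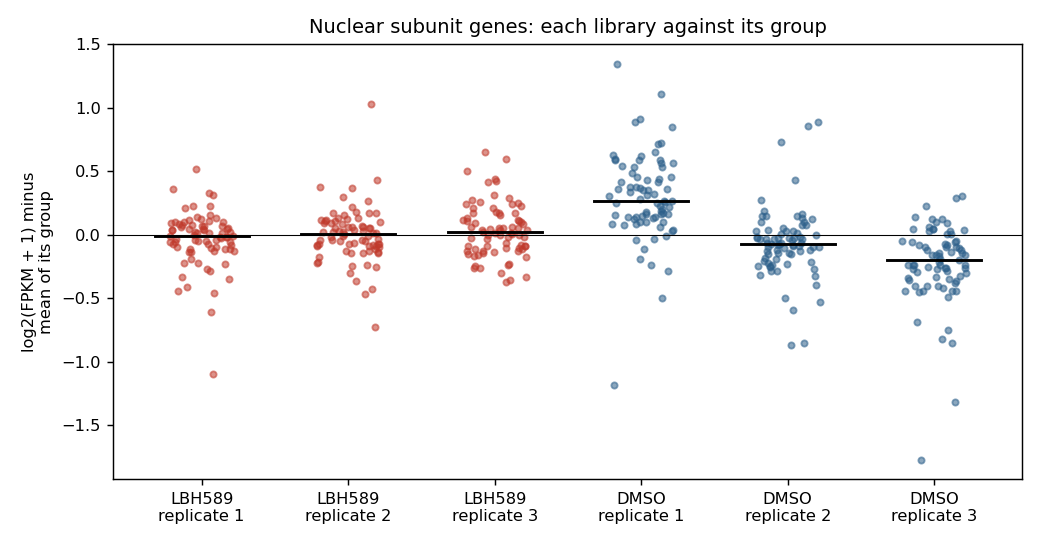
Deviation of each nuclear subunit from its group mean (log2 of FPKM + 1) in each library, LBH589 left of DMSO. Medians are between -0.01 and 0.02 in the LBH589 libraries and at 0.27, -0.07 and -0.20 in DMSO replicates 1 to 3.

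Promoters of the nuclear members were searched for motifs of factors known to bind respiratory genes. RefSeq promoters (GRCh38.p14, 250 bases before to 50 after the start) were matched for 78 of 94 nuclear members and 9559 of the 11520 tested genes, and both strands were read. The NRF1 core GCATGCGC was found in 16 member promoters (20.5%), against 5.95% of tested genes. The ETS core CCGGAAGT was found in 14.1% of member promoters and 9.57% of tested genes, the YY1 core AAGATGGC in 14.1 and 5.68%, and the GC box GGGCGG in 60.3 and 71.5%. Among members, the NRF1 core was in 2 of the 6 matched that rose, 4 of the 14 that fell and 10 of the 58 that did not pass. A match is a description of these letters and not a binding site. The 250 bases before the start are shown for 3 genes with calls held in every fit that left out a library: ATP5MD (RefSeq name ATP5MK, chr10:103396476-103396725, minus strand) and NDUFS6 (chr5:1801157-1801406, plus strand), which fell, and NDUFB3 (chr2:201071751-201072000, plus strand), which rose. Other genes with such calls are not shown. Among them, the same 250 bases of ATP5PB and SDHAF3 hold a GC box only, and those of NDUFAF1 hold no motif match. Capitals mark motif matches on either strand.
ATP5MD: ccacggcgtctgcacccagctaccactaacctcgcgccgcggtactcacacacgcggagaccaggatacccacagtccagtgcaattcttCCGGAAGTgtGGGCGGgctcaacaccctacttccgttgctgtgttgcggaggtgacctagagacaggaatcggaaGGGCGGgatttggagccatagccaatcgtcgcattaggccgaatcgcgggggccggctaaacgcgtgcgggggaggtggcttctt
NDUFS6: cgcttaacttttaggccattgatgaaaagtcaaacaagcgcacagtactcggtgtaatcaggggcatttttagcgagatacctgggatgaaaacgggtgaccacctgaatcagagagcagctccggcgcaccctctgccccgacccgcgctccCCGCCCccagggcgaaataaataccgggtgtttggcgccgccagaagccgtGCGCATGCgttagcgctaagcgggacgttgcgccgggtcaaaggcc
NDUFB3: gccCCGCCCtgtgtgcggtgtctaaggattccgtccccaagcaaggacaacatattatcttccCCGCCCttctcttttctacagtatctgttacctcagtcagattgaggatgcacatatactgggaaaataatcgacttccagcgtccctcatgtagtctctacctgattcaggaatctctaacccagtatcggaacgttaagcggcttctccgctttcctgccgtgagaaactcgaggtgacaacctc
The ATP5MD sequence holds an ETS core and GC boxes, that of NDUFS6 an NRF1 core and a GC box, both on the opposite strand, and that of NDUFB3 GC boxes only. None of the marked matches overlap each other.

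Genes that surround the respiratory chain were read from the same fit. Over 6 lists with 142 tested genes outside the members, 27 rose and 29 fell, 39.4% against 48.8% of all tested genes. Among 39 further assembly factors 4 rose and 7 fell. COX15, which makes heme A for complex IV, had 31.3 ± 0.889 FPKM in LBH589 and 14.1 ± 0.354 FPKM in DMSO (log2 difference 1.10, adjusted p = 0.000173). COA7 and COA6, assembly factors of complex IV, fell to 5.64 ± 0.267 and 18.5 ± 2.21 FPKM in LBH589, against 17.3 ± 1.95 and 42.3 ± 3.61 FPKM in DMSO (log2 differences -1.46 and -1.16).

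The electron carriers and ubiquinone genes gave 5 rises and 1 fall among 16, where 27.2% of all tested genes were called higher and 21.6% lower. The median log2 difference of the 16 was 0.38, against 0.08 over all tested genes. ETFDH, which feeds electrons from fatty acid oxidation into ubiquinone, had 34.0, 33.5 and 37.7 FPKM in LBH589, against 6.34, 8.23 and 6.97 FPKM in DMSO (log2 difference 2.15, adjusted p = 6.51e-05). COQ7, of ubiquinone synthesis, rose (10.4 ± 0.421 FPKM in LBH589, 4.26 ± 0.117 FPKM in DMSO), and PDSS1, which makes the ubiquinone tail, fell (7.68 ± 0.547 FPKM in LBH589, 12.9 ± 0.644 FPKM in DMSO). CYCS, cytochrome c, had 77.4 ± 2.67 FPKM in LBH589 and 56.7 ± 0.946 FPKM in DMSO (log2 difference 0.44, adjusted p = 0.00498). CYC1, cytochrome c1 of complex III, which the symbol rule does not take, had 6.31, 8.02 and 13.8 FPKM in LBH589, against 20.7 and 12.4 FPKM in DMSO replicates 1 and 2, and was listed at 0 in DMSO replicate 3.

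Of 27 tested genes for the upkeep and expression of mitochondrial DNA, 7 rose and 8 fell, where 48.8% of all tested genes were called. TFAM, which packages the DNA and starts its transcription, had 24.7, 26.7 and 23.5 FPKM in LBH589, against 24.9, 28.4 and 30.6 FPKM in DMSO (log2 difference -0.15, adjusted p = 0.301). POLRMT, the RNA polymerase, averaged 3.10 ± 0.865 FPKM in LBH589 and 1.82 ± 1.16 FPKM in DMSO (adjusted p = 0.185). Neither passed, and the groups overlapped in both. MGME1, a nuclease of mitochondrial DNA replication, had 5.24, 2.35 and 5.35 FPKM in LBH589, against 21.5, 18.2 and 20.3 FPKM in DMSO (log2 difference -2.04, adjusted p = 0.00144). FASTKD2 and SLIRP, RNA-binding proteins of the mitochondrion, fell with log2 differences of -1.24 and -0.68 (adjusted p = 0.00111 and 0.00295).

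The regulators of mitochondrial biogenesis changed in both directions, with 5 rises and 3 falls among 15, where 48.8% of all tested genes were called. PPARGC1A, the coactivator PGC-1alpha, had 8.18, 6.70 and 7.27 FPKM in LBH589, against 3.02, 3.75 and 1.05 FPKM in DMSO (log2 difference 1.30, adjusted p = 0.0175). Its relative PPARGC1B had 1.99, 1.84 and 1.97 FPKM in LBH589, against 11.1, 11.2 and 10.3 FPKM in DMSO (log2 difference -2.02, adjusted p = 5.65e-05). The pair thus exchanged order: PPARGC1A was the higher in every LBH589 library and PPARGC1B in every DMSO library. PPARD and SIRT1 rose with log2 differences of 1.68 and 1.06. Of the factors whose motifs were searched, NRF1 had 3.82 ± 0.0235 FPKM in LBH589 and 3.36 ± 0.889 FPKM in DMSO (adjusted p = 0.469). YY1 fell to 9.96 ± 0.639 FPKM in LBH589, against 26.2 ± 5.70 FPKM in DMSO (log2 difference -1.29, adjusted p = 0.00137). GABPA, of the ETS family, had 12.2 ± 0.574 FPKM in LBH589 and 8.32 ± 1.14 FPKM in DMSO (log2 difference 0.51, adjusted p = 0.017). YY1 and GABPA lie outside the naming rule.

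Of 19 genes of the tricarboxylic acid cycle 1 rose and 2 fell, well below the 48.8% called over all tested genes. SUCLG2, a succinyl-CoA ligase subunit, and IDH3B, a subunit of the NAD-dependent isocitrate dehydrogenase, fell with log2 differences of -0.98 and -1.20, and DLD, the shared dihydrolipoamide dehydrogenase, rose by 0.37. Of 26 carriers and import genes 5 rose and 8 fell, a share near that 48.8%. SLC25A4, the ADP/ATP carrier known from heart and muscle, had 107, 101 and 97.4 FPKM in LBH589, against 20.0, 19.0 and 20.5 FPKM in DMSO (log2 difference 2.30, SE 0.09, adjusted p = 2.32e-05). SLC25A5, the form of dividing cells, had 122, 116 and 126 FPKM in LBH589, against 193, 150.2 and 161 FPKM in DMSO (log2 difference -0.46, adjusted p = 0.0207); it lies outside the naming rule and was chosen after its values were seen. The groups did not overlap in either carrier gene. VDAC1, a channel of the outer membrane, had 41.5, 47.6 and 37.7 FPKM in LBH589, against 168, 152 and 164 FPKM in DMSO (log2 difference -1.91, adjusted p = 7.45e-05), and SLC25A13, an aspartate-glutamate carrier, fell with a log2 difference of -1.50.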

How the data were processed

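RNA sequencing of 3 LBH589 and 3 DMSO samples was deposited as FPKM for each transcript, 1 file a library, as the file headers state. The submitters' processing notes name Bowtie 0.12.2 and hg19; their role, and what else was run, is not given in the sources used here. Of 30624 listed transcripts, none of which averages under 0.50 FPKM in both groups, 30504 (99.6%) were named through GENCODE release 29 transcripts, and FPKM was summed per gene, adding values divided by different lengths. Any 2 libraries had at most 1 equal transcript value above 0. The 11520 genes averaging 0.5 FPKM or more across all 6 libraries entered a fit on log2 of the deposited FPKM plus 1, with limma 3.58.1 (R 4.3.3, statmod 1.5.0), trend and robust moderation, treatment as the only term and Benjamini-Hochberg adjustment; called genes had adjusted p below 0.05. Sums over members were not tested. The fit was also run on simulated data with 200 changed genes and values drawn independently for each gene. The outcome is not given here. Members, lists and the naming rule were chosen with earlier results of these data known. The rule named all 13 mitochondrial genes, the SDH genes, in each other complex and in the assembly factors up to 4 called members with the smallest adjusted p and the most abundant member, listed isoform sets, and from each surrounding list up to 3 called genes plus TFAM, POLRMT, NRF1, PPARGC1A, CYCS and CYC1. Other members, SLC25A5, YY1 and GABPA were named after their values were seen. Alternatives covered pseudocount, filter, scaling, moderation, threshold, replicate block, transcript choice and each library left out. Genome positions are those of GENCODE and RefSeq on GRCh38, a later build than that of the files.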

Additional observations from a re-analysis of the deposited data

How the results depend on the processing

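Directions of the 26 called members held under every alternative run, except that quantile normalization set MT-ATP8, the highest gene of every library, to a log2 difference of 0. Making the sums of all libraries equal moved the median log2 difference of all genes to 0.22, against 0.08, and gave 14 rises and 14 falls among nuclear members in place of 7 and 17. It changed the log2 ratio of the summed mitochondrial genes to -0.21, against -0.39, that of the nuclear subunits to -0.069, against -0.25, and surrounding falls to 18, against 29. With the mitochondrial genes left out of the sums, nuclear members gave 9 rises and 16 falls. At an adjusted p below 0.01, nuclear rises numbered 3, mitochondrial falls 0, surrounding rises 11 and surrounding falls 17. Mitochondrial falls numbered 1 (MT-ATP6 with quantile normalization, otherwise MT-ATP8) with a pseudocount of 0.1, no filter, equal sums, equal sums without mitochondrial genes, equal medians, quantile normalization or the most abundant transcript, and quantile normalization gave 1 mitochondrial rise, MT-ND1. The most abundant transcript gave 16 surrounding rises, against 27, and a mean of at least 5 FPKM gave 1844 rises among all genes, against 3132, as fewer genes were tested. Leaving out each library gave 3 to 10 nuclear rises, 0 to 4 mitochondrial falls and 14 to 29 surrounding rises.

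The labels do not say whether replicate numbers pair the libraries. Deviations from the group means correlated at -0.10, 0.02 and -0.04 in same-numbered libraries, and between -0.05 and 0.08 in the others. With 3 libraries a group, these values cannot show whether libraries were paired. With the replicate number as a block, nuclear rises were 4 and mitochondrial falls 1. Of 508 values of uncalled named genes under the alternatives, 39 had the other sign and 12 passed. Depth is unknown, so no counting error can be given.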
